A study of Mus musculus with 12 samples.

Results

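The leukocyte adhesion genes Itgam, Itgax, Itgal, Itgb2, Itgb2l, Itga4, Itgb1, Selplg and Cd44 were compared in mouse leukemia cells grown in 3 kinds of host. They are a named list of 9 genes of the 55401 in the deposited table, taken by symbol. The list was chosen with earlier results of these data known, so counts over it are a description only. All 9 passed the filter of a mean level of 1 TPM or more, which left 15026 genes to test. TPM is a transcript level corrected for transcript length and scaled to a common total in each library. The cells express MLL-AF9, a fusion oncogene of acute myeloid leukemia, together with GFP from a retroviral vector, and had been passed through many mice before this transplantation. Without irradiation, they were given to young adult female wild-type (WT) C57BL/6 mice, to Rag2-/- mice on the C57BL/6 background, which lack mature T and B cells, or to NSG mice, which lack T, B and NK cells. GFP+ cells were taken from the bone marrow when the mice were moribund, and each host gave 4 libraries labelled as biological replicates. The fusion and GFP are common to all 12 libraries, and NSG mice differ from the other hosts in strain as well as in immune cells, so that in comparisons with NSG these cannot be told apart. The Rag2 deletion is in the host and not in the transplanted cells, so no transcript of the leukemia cells checks the host labels.

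Integrins are pairs of an alpha and a beta chain that hold a cell to other cells or to matrix once signals from inside the cell have opened them. The beta-2 chain, encoded by Itgb2, pairs with the alpha chains of Itgal (LFA-1), Itgam (Mac-1, the CD11b of flow cytometry) and Itgax (CD11c), which leukocytes use to adhere firmly to endothelium and to take up particles, and the alpha-4 chain of Itga4 pairs with the beta-1 chain of Itgb1 in VLA-4, which binds VCAM-1 and fibronectin in the marrow. Selplg encodes PSGL-1, the ligand with which leukocytes roll on selectins, and Cd44 encodes the hyaluronan receptor that leukemia stem cells are known to use for lodging in the marrow.

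Depth was estimated from the steps between low TPM values and lay between 16000000 and 42800000 reads per library, at which 3 reads on 1 kb of exon are worth 0.249 to 0.647 TPM. All 11 markers of MLL-AF9 myeloid cells were detected, with summed levels of 11062 to 15989 TPM. Most of this sum was Elane, at 9099 to 13614 TPM over the libraries. By the test given below, 1 of the 11 was called lower in Rag2-/- than in WT hosts, as were 0.326% of all genes tested. Of 16 T and NK cell markers, 13 were at or below 1 TPM in every library, Cd3e and Trac among them at 0. The 16 had summed levels of 5.54 to 11.3 TPM. The 15 neutrophil markers were not equal between hosts. Their summed level was 1608 to 3447 TPM in WT, 1975 to 3398 in NSG and 2505 to 10901 in Rag2-/- libraries, where replicate 4 was the lowest. The 13 macrophage markers summed to 280 to 318 TPM in WT, 342 to 386 in Rag2-/- and 254 to 350 in NSG libraries. Of the 9 tested, 2 were called higher in Rag2-/- than in WT hosts and 0 against NSG, by the test and limits given below. The shares called higher among all genes tested were 1.14% and 0.193%. Mpo, a granule enzyme of immature myeloid cells, was at 508 to 593 TPM in WT, 70.1 to 287 in Rag2-/- and 219 to 710 in NSG libraries. The part of these genes in the results that follow was not tested. In RNA from a bulk of sorted cells, fewer cells of a type and less RNA per cell cannot be told apart.

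The members covered a wide range of levels. Over the 12 libraries, Itgb2 was highest with a mean of 496 TPM, followed by Itgb1 with 237, Cd44 with 126, Selplg with 94.0, Itgam with 91.6, Itgal with 70.6, Itga4 with 66.2, Itgax with 4.00 and Itgb2l with 1.05 TPM. Ranges over the libraries overlapped between Cd44 and Selplg, between Selplg and Itgam, between Itgam and Itgal, between Itgal and Itga4 and between Itgax and Itgb2l, and these neighbours are not ordered beyond their spread. Itgb2 and Itgb1 did not overlap, nor did Itgb1 and Cd44. In Rag2-/- replicate 3, Itgb2l at 3.02 TPM was above Itgax at 2.81 TPM. Itgb2 exceeded 98.3% of the genes tested, and Itgb2l only 0.799%.

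**Figure D1:**
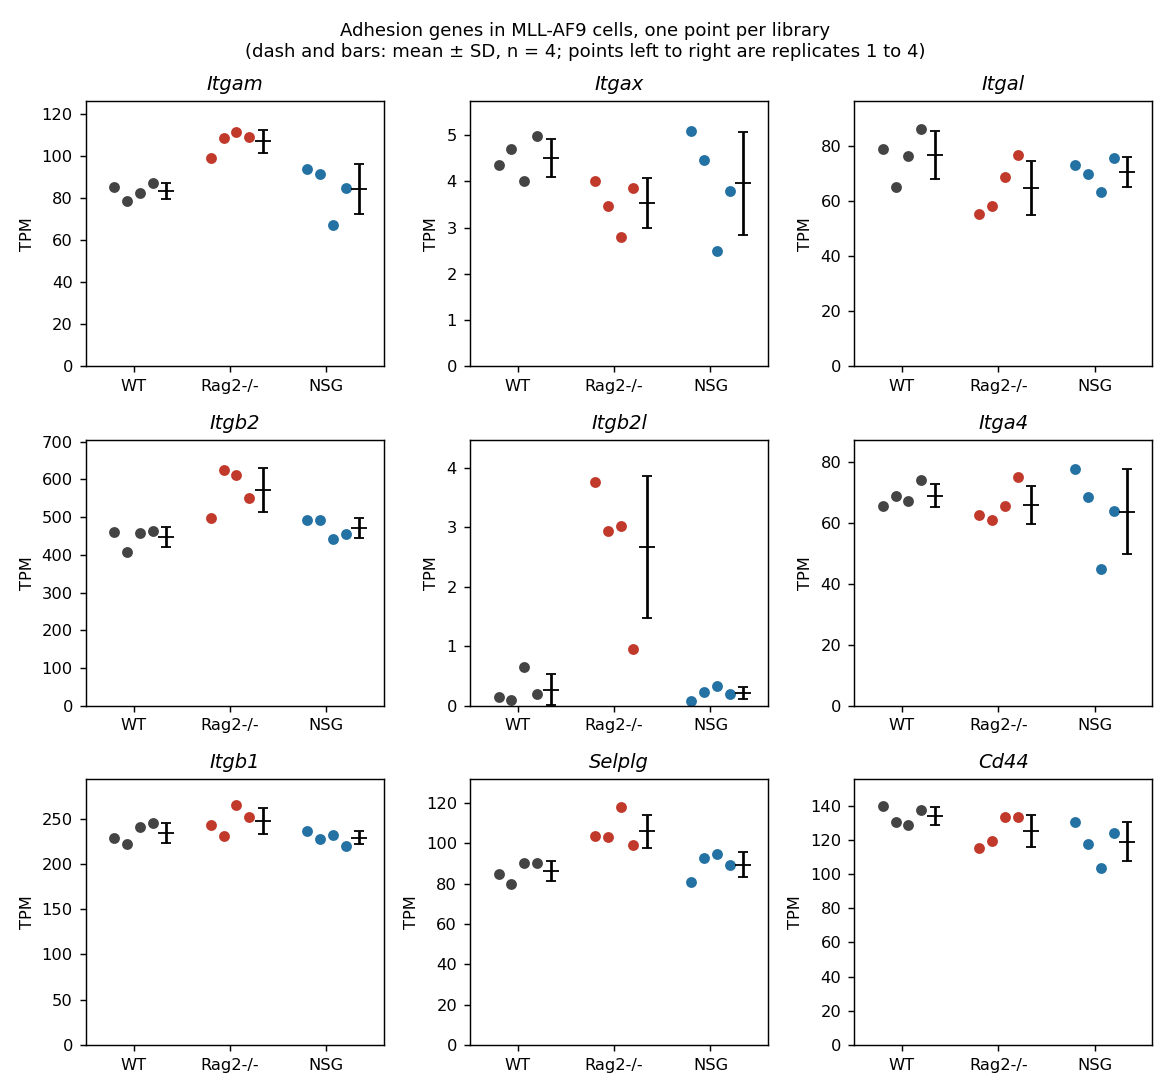
Level of each of the 9 adhesion genes in TPM (vertical axis from 0), one point per library for WT, Rag2-/- and NSG hosts, with the mean and SD of the 4 libraries beside them. Rag2-/- points lie above all others for Itgam, Itgb2, Itgb2l and Selplg, and Itgb2l is close to 0 outside Rag2-/- hosts.

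Which of these genes differ with the host was asked with limma, a linear model fitted to log2(TPM + 1) of every tested gene over all 12 libraries. To be called, a gene needed an adjusted p-value (Benjamini-Hochberg, over all genes tested) under 0.05 and a log2 fold change beyond 0.5 in either direction. Compared with WT hosts, 1 of the 9 genes, Itgb2l, was called higher in Rag2-/- hosts and 0 were called lower, against 1.14% and 0.326% of all genes tested. Itgb2l passed the filter only through the Rag2-/- libraries in which it was high. Its mean was 0.272 TPM in WT and 0.208 TPM in NSG libraries, so it had to differ to be tested. Its call is no support for the list, and neither is its place in the counts that follow against WT and against NSG. Without the fold limit, 3 of the 9 passed, namely Itgb2l, Itgb2 and Selplg, all higher, against 2.06% of all genes. In 4 of the 9 (Itgam, Itgb2, Itgb2l and Selplg) every Rag2-/- library lay above every WT library, as did 10.2% of all genes. In 1 (Itgax) every Rag2-/- library lay below, as did 6.72%.

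Against NSG hosts, limma called 0 of the 9 genes, against 0.213% of all genes tested, with 4 at an unadjusted p under 0.05 against 12.6%. The same 4 genes, Itgb2l among them, lay above NSG without overlap, as did 4.34% of all genes. In the other direction 0 lay below, where 2.25% of all genes did. These comparisons share the Rag2-/- libraries and are therefore not separate evidence. Between NSG and WT hosts limma called 0 of the 9 genes and 0% of all genes, 1 member (Cd44) had an unadjusted p under 0.05 as did 9.16% of all genes, and voom on estimated reads called 0 members both there and against NSG. The median log2 fold change over the 9 genes was 0.08 against WT and 0.11 against NSG, beside 0.02 and 0.01 over all genes tested.

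**Figure D2:**
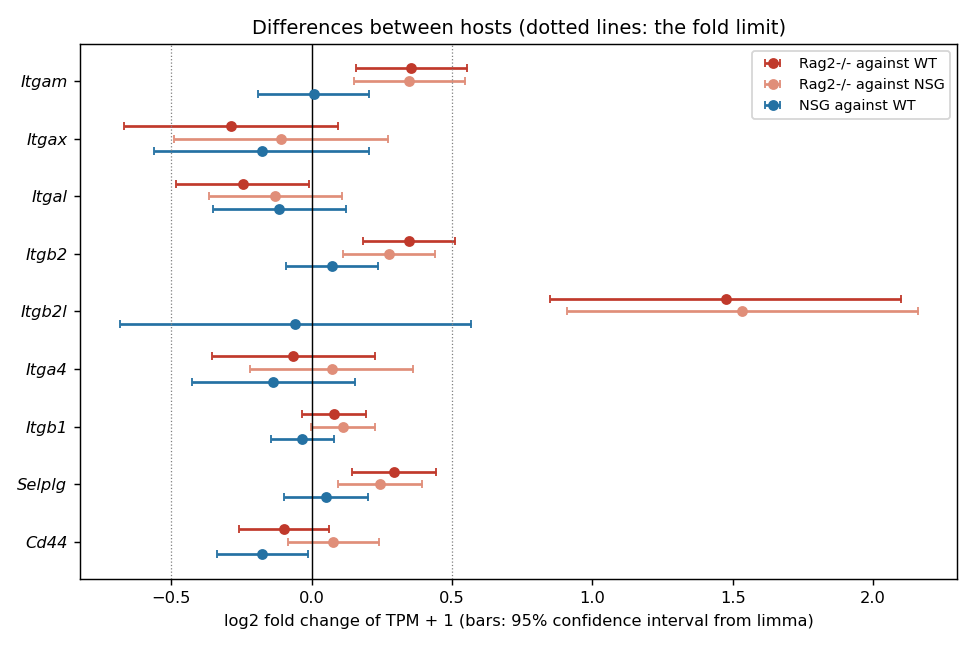
Log2 fold change of TPM + 1 for the 9 genes in the 3 comparisons of hosts, with 95% confidence intervals from limma and dotted lines at the fold limit of 0.5. Itgb2l stands at 1.48 against WT and 1.53 against NSG, and the other 8 genes lie between -0.29 and 0.36.

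Itgb2, the beta-2 chain shared by the leukocyte integrins (GRCm38 chromosome 10, 77530252 to 77565708, plus strand), was the most abundant member in every host. Its level was 460.3, 409, 459 and 463 TPM in WT libraries 1 to 4, 498, 624, 611 and 550.5 in Rag2-/- and 493, 493, 442 and 454 in NSG libraries. All Rag2-/- libraries were above all others, with WT replicate 2 the lowest library. The difference from WT was 0.35 on the log2 scale (SE 0.08, 95% confidence interval 0.18 to 0.51, limma adjusted p = 0.0338), a 1.27-fold change and below the fold limit. From NSG it was 0.27 (0.11 to 0.44, limma adjusted p = 0.143). With single libraries left out, the adjusted p against WT ranged from 0.0210 to 0.117 and was above 0.05 without any of the 4 WT libraries or without Rag2-/- replicate 2 or 3.

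Itgb2l, a beta-2-like integrin gene known from mature neutrophils (chromosome 16, 96422288 to 96443619, minus strand), showed the largest difference of the 9. In WT libraries 1 to 4 it was at 0.150, 0.0917, 0.651 and 0.196 TPM. Rag2-/- libraries held 3.76, 2.94, 3.02 and 0.962 TPM, and NSG libraries 0.0832, 0.233, 0.327 and 0.190 TPM. Every Rag2-/- library was above every other library, though replicate 4 exceeded WT replicate 3 by little.

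In estimated reads, the gene had 162, 81, 64 and 50 in Rag2-/- libraries, 3, 2, 22 and 4 in WT and 2, 6, 8 and 8 in NSG libraries, so that WT replicates 1 and 2 and NSG replicate 1 were at or below 3 reads. The mean level with its SD over 4 libraries was 2.67 ± 1.20 TPM for Rag2-/- hosts, which is 9.83 times the 0.272 ± 0.256 TPM of WT and 12.8 times the 0.208 ± 0.101 TPM of NSG hosts. On the log2(TPM + 1) scale, which understates changes of low genes, Itgb2l was higher than in WT by 1.48 (SE 0.29, 95% confidence interval 0.85 to 2.10, limma adjusted p = 0.0230), and called. Against NSG the difference was 1.53 (0.91 to 2.16), with a limma adjusted p of 0.0543 and no call. Because the hosts did not overlap, a two-sided exact permutation test on its TPM stands at its smallest possible p of 0.0286 in both comparisons, which adds nothing to that count.

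The call of Itgb2l against WT was lost when WT replicate 1, 2 or 4 or Rag2-/- replicate 1, 2 or 3 was left out, with adjusted p-values up to 0.0874. Leaving out Rag2-/- replicate 4, the library with the lowest Itgb2l of its group, gave 1.75 and an adjusted p of 0.00448 against WT and 1.81 and 0.00858 against NSG, where the gene was then called. It was also called against NSG without NSG replicate 3 (adjusted p = 0.0492). With voom on the estimated reads the log2 fold changes were 3.08 (adjusted p = 0.0334) and 3.36 (adjusted p = 0.0524), and with a pseudocount of 0.1 they were 2.96 and 3.08.

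Itgb2l moved together with most of the neutrophil markers. Of the 15 genes, 11 were called higher against WT hosts, 9 against NSG hosts, and 0 lower against either. Of all genes tested, 1.14% were called higher against WT and 0.193% against NSG, and 0.326% and 0.02% lower. Itgb2l and the summed markers were both highest in Rag2-/- replicates 1 to 3, at 8764, 9633 and 10901 TPM for the sum. In replicate 4 the sum was 2505 TPM and inside the range of the other hosts, but this sum is mostly Chil3, a secreted lectin, at 1636 TPM there. Without Chil3, left out after its values were seen, the other 14 markers summed to 869 TPM in that library, against 395 to 616 TPM in WT and NSG libraries. In it 11 of the 15 were above every library of the other hosts, all but Ly6g, Cebpe, Padi4 and Chil3. The share of all genes that did so was not counted, so this is a description only. Cebpe had a lower mean in Rag2-/- libraries, at 142 TPM, than in WT, at 173, or NSG, at 171. Ngp, a granule protein of neutrophils, ranged from 79.0 to 301 TPM in Rag2-/- libraries, but only from 11.2 to 19.7 TPM in WT and from 14.0 to 18.8 TPM in NSG libraries. No marker was at 0 in all libraries. The part of these markers in the Itgb2l difference was not tested.

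**Figure D3:**
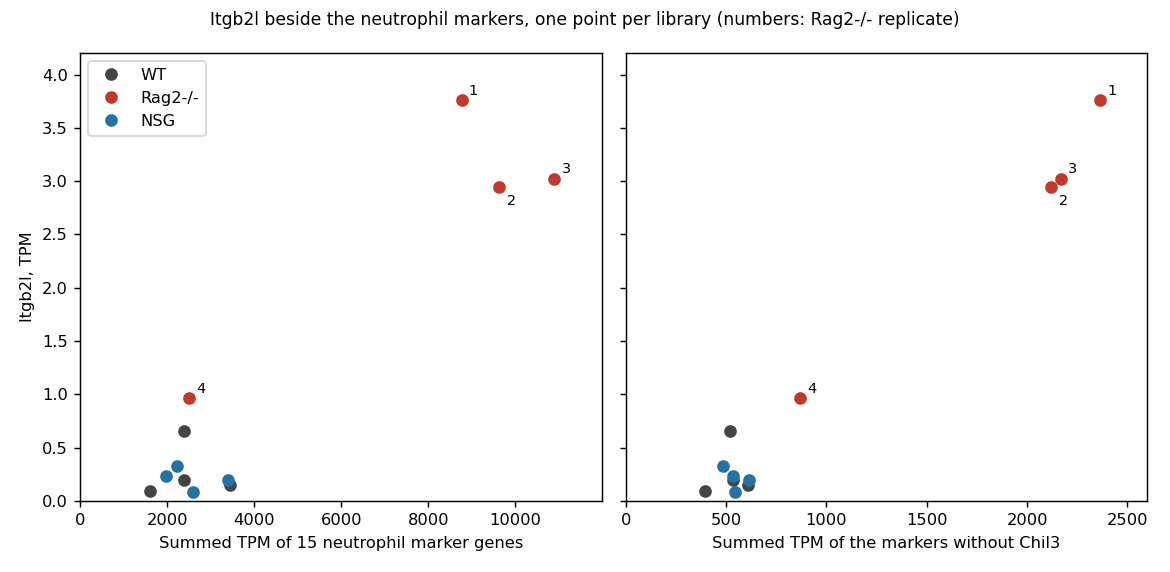
Itgb2l in TPM against the summed TPM of 15 neutrophil markers (left) and of the 14 without Chil3 (right), one point per library, with Rag2-/- replicates numbered. Rag2-/- replicates 1 to 3 are far from the other libraries on both axes, and replicate 4 stands apart from WT and NSG libraries on the right but not on the left horizontal axis.

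By the likeness of log2(TPM + 1) over the 12 libraries, a description only, the genes closest to Itgb2l were Ngp (Pearson r = 0.980), Fn1 (0.977), Hmox1 (0.969), S100a8 (0.967) and Cxcr2 (0.964). For each of the 5, all Rag2-/- libraries lay above all others and replicate 4 was the lowest of them, and the points share library depth. S100a8 encodes a calcium-binding protein of neutrophils and Cxcr2 their chemokine receptor, and both were in the marker list. Fn1 encodes fibronectin, itself an integrin ligand, and was at 1.29 to 7.19 TPM in Rag2-/- libraries and at no more than 0.516 TPM elsewhere. Between Itgb2l and Itgb2 the longest exact run shared by their exons was 25 bases, so reads are unlikely to have been split between them.

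Itgam, the alpha chain of Mac-1 and a standard myeloid marker (chromosome 7, 128062640 to 128118491, plus strand), was at 85.3, 78.7, 82.5 and 87.1 TPM in WT libraries, at 98.9, 108, 112 and 109 in Rag2-/- and at 93.7, 91.7, 67.3 and 85.0 in NSG libraries. The 4 Rag2-/- libraries were close together and above all others, whereas NSG replicate 3 was low. The log2 fold change was 0.36 against WT (SE 0.09, 95% confidence interval 0.16 to 0.55) and missed the threshold with a limma adjusted p of 0.0546. Over the alternative settings this value ranged from 0.00796 without NSG replicate 3 to 0.157 without Rag2-/- replicate 3, with 0.0253 by voom, while the fold change stayed below the limit in each. Against NSG the difference was 0.35 (0.15 to 0.54, limma adjusted p = 0.132). Closest to Itgam over the 12 libraries were Arhgef3 (Pearson r = 0.951), Ampd3 (0.946), Zfp874a (0.942), Vps37a (0.939) and Fgd4 (0.938). Exons of Itgam overlap 3450 bases of Gm49368 on the same strand, which was at no more than 0.225 TPM.

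The 250 bases before the starts of Itgb2l and Itgam are shown because both genes lay above the other hosts in every Rag2-/- library and both are genes of maturing myeloid cells. Starts and bases are from RefSeq on GRCm38.p6, which gave 6 of the 9 members, all but Itgal, Itgb2 and Selplg. Capitals mark GAGGAA, the core bound by the myeloid factor PU.1, found on either strand, so that TTCCTC is the same core read from the other strand.
Itgb2l, chr16:96443615-96443864, minus strand: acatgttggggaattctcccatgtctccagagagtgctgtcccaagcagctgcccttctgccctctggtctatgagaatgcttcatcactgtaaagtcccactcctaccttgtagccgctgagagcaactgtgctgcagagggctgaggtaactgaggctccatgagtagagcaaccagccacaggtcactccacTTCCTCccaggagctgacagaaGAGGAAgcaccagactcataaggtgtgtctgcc
Itgam, chr7:128062390-128062639, plus strand: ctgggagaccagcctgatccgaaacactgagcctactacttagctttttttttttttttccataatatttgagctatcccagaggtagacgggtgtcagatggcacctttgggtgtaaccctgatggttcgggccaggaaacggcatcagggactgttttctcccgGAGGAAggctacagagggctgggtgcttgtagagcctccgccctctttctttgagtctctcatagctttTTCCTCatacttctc
Itgb2l had 2 matches, at 55 and 33 bases before the start, and Itgam 2, at 84 and 15 bases. Among the other members, Cd44 had 2 matches and Itgb1 had 1, whereas Itgax and Itga4 had 0, and 23.3% of 32851 promoters of the same length held at least 1. The C/EBP motif TTGCNNAA, searched on both strands, was in 0 of the 6 and in 9.56% of all promoters. A match is a description of the letters and not of binding.

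Itgal, the alpha chain of LFA-1 (chromosome 7, 127296260 to 127335138, plus strand), had the opposite order. Levels were 79.0, 65.1, 76.2 and 86.1 TPM in WT, 55.3, 58.2, 68.6 and 76.7 in Rag2-/- and 73.0, 69.8, 63.1 and 75.7 in NSG libraries. The hosts overlapped, with Rag2-/- replicates 1 and 2 the lowest libraries. The difference from WT was -0.24 (SE 0.11, 95% confidence interval -0.48 to -0.01, limma adjusted p = 0.225), and from NSG it was -0.13 (-0.37 to 0.11, limma adjusted p = 0.683).

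Itgax, the alpha chain known as CD11c on dendritic cells (chromosome 7, 128129547 to 128150657, plus strand), was low. It was at 4.35, 4.70, 4.02 and 4.97 TPM in WT, 4.01, 3.47, 2.81 and 3.86 in Rag2-/- and 5.09, 4.47, 2.50 and 3.79 in NSG libraries, from an estimated 66 to 223 reads. All Rag2-/- libraries were below all WT libraries, but Rag2-/- replicate 1 and WT replicate 3 were nearly equal. The difference from WT was -0.29 (SE 0.18, -0.67 to 0.10, limma adjusted p = 0.379). Itgax shares exact exonic runs of up to 188 bases with Itgad, another alpha chain that pairs with beta-2, so reads could be split between them. Itgad was below the filter, at 0.422 to 1.00 TPM in WT, 0.905 to 2.00 in Rag2-/- and 0.239 to 0.571 in NSG libraries. Its mean was higher in Rag2-/- than in WT hosts, the other way from Itgax. The part of such split reads in the Itgax difference was not tested.

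Because TPM corrects for length, the chains can be set side by side within a library, as a description without a test. The counting tool is not given, so reads on bases that Itgam shares with Gm49368, or Itgax with Itgad, may be missing. Itgam was 101% to 121% of Itgal in WT libraries, 107% to 131% in NSG and 142% to 186% in Rag2-/- libraries, so the range of the latter did not overlap the others. As a share of Itgb2, Itgam was alike between hosts, from 18.0% to 19.3% in WT, 17.4% to 19.9% in Rag2-/- and 15.2% to 19.0% in NSG libraries. Itgal was 15.9% to 18.6% of Itgb2 in WT, 14.2% to 16.7% in NSG and 9.33% to 13.9% in Rag2-/- libraries, again without overlap for Rag2-/-. Itgam and Itgb2 already lay above the other hosts in every Rag2-/- library, whereas Itgal alone overlapped. The separation of these ratios is therefore not a finding apart from those differences. Alpha chains of the beta-2 family, Itgad included, summed to 35.6% to 38.6% of Itgb2 in WT, 30.2% to 36.4% in NSG and 27.4% to 34.7% in Rag2-/- libraries.

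**Figure D4:**
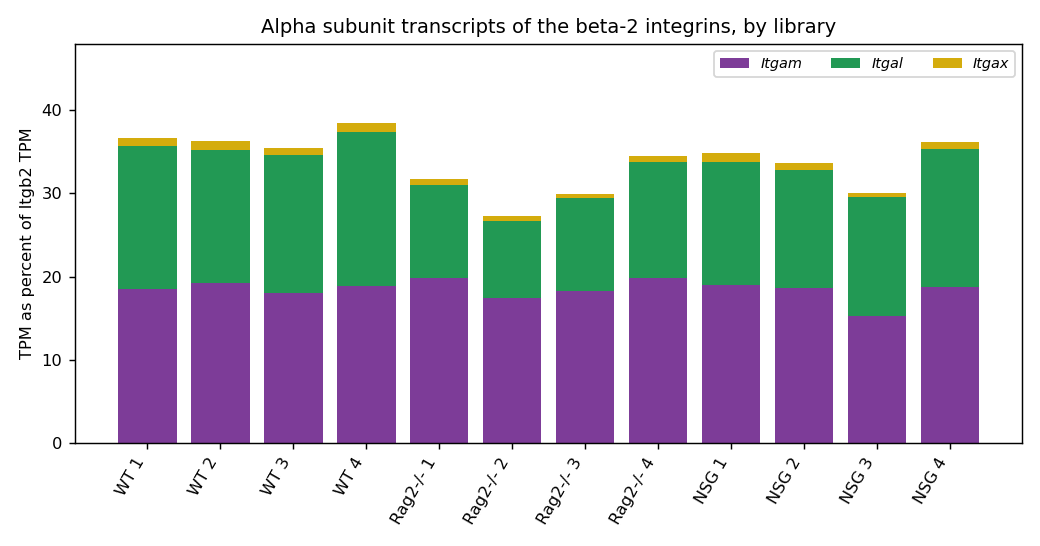
TPM of Itgam, Itgal and Itgax as a percent of Itgb2 TPM, stacked, 1 bar per library. The Itgam part is of like height in every library, and the Itgal part is lowest in the 4 Rag2-/- libraries, at 9.33% to 13.9%.

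The chains of VLA-4 showed no detectable difference between hosts. Itga4 (chromosome 2, 79255426 to 79333123, plus strand) was at 65.6, 68.8, 67.0 and 74.3 TPM in WT, 62.5, 60.8, 65.6 and 74.9 in Rag2-/- and 77.7, 68.4, 44.9 and 64.1 in NSG libraries, and the hosts overlapped throughout, with the widest spread in NSG. Its log2 fold changes were -0.07 against WT (95% confidence interval -0.36 to 0.23, limma adjusted p = 0.820) and 0.07 against NSG (-0.22 to 0.36, limma adjusted p = 0.883), and the sign of the latter turned without NSG replicate 3 (-0.09). Cerkl overlaps 1124 exonic bases of Itga4 on the other strand and was at no more than 5.75 TPM.

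Itgb1, the beta-1 chain (chromosome 8, 128685654 to 128733200, plus strand), was among the steadiest members, with 229, 222, 241 and 245 TPM in WT, 243, 231, 265 and 252 in Rag2-/- and 236, 228, 232 and 219 in NSG libraries. The hosts overlapped, and the highest library exceeded the lowest by 1.21-fold. Differences were 0.08 against WT (-0.03 to 0.19, limma adjusted p = 0.417) and 0.11 against NSG (-0.001 to 0.23, limma adjusted p = 0.404). Itga4 was 27.8% to 31.0% of Itgb1 in WT, 24.8% to 29.7% in Rag2-/- and 19.3% to 32.8% in NSG libraries.

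Selplg, which encodes PSGL-1 (chromosome 5, 113818536 to 113832644, minus strand), was at 85.1, 79.8, 90.2 and 90.1 TPM in WT, 104, 103, 118 and 99.4 in Rag2-/- and 80.8, 92.9, 94.9 and 89.3 in NSG libraries. Rag2-/- libraries were all above the others, with a gap of less than 5 TPM to the highest NSG library. The difference from WT was 0.29 (SE 0.07, 95% confidence interval 0.14 to 0.44, limma adjusted p = 0.0444), a 1.23-fold change below the fold limit, and from NSG it was 0.24 (0.09 to 0.39, limma adjusted p = 0.156). With single libraries left out, the adjusted p against WT ranged from 0.0338 to 0.135 and stayed under 0.05 only without Rag2-/- replicate 4, NSG replicate 1 or NSG replicate 3.

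Cd44 (chromosome 2, 102811141 to 102901665, minus strand) was at 139.7, 130.5, 129 and 138 TPM in WT, 115, 119.6, 134 and 133 in Rag2-/- and 131, 118, 104 and 124 in NSG libraries. The hosts overlapped, with WT at the upper end. Its differences were -0.10 against WT (-0.26 to 0.06, limma adjusted p = 0.482) and 0.08 against NSG (-0.08 to 0.24, limma adjusted p = 0.735). NSG against WT was at -0.18 (-0.34 to -0.01), with an unadjusted p of 0.0350 and an adjusted p of 0.525.

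Rag2-/- replicate 4, where neutrophil markers were lowest among the Rag2-/- libraries, held 109 TPM of Itgam, 550.5 of Itgb2 and 99.4 of Selplg. Each of these was above all WT and NSG libraries. In the same library 11 of the 15 neutrophil markers were also above all WT and NSG libraries, with the share of all genes not counted. Without this library the log2 fold changes against WT were 0.35 for Itgam, 0.36 for Itgb2 and 0.32 for Selplg. The part of the markers in these 3 differences was not tested.

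The wider adhesion machinery was read from 7 lists of 118 genes, of which 117 were found in the table and 84 passed the filter. These lists were chosen with earlier results of these data known, so the counts that follow are a description only. Compared with WT, 4 of the 84 were called higher in Rag2-/- hosts and 0 lower, where 1.14% and 0.326% of all genes were called. Against NSG 2 were called higher and 0 lower, where 0.193% and 0.02% of all genes were called, and between NSG and WT limma and voom each called 0, with 14 at an unadjusted p under 0.05 as had 9.16% of all genes. Without overlap, 22 of the 84 lay above and 6 below WT, where 10.2% and 6.72% of all genes did, and 18 lay above and 1 below NSG, where 4.34% and 2.25% did. The median log2 fold change of the 84 was 0.09 against WT and 0.13 against NSG.

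Among the kinases and exchange factors that signal from integrins and PSGL-1, 1 of 13 tested was called against WT. This was Fgr, a Src family kinase of myeloid cells, at 25.5 ± 3.48 TPM (SD, n = 4) in WT, 47.8 ± 11.5 in Rag2-/- and 28.9 ± 6.66 in NSG hosts (log2 fold change 0.86 and limma adjusted p = 0.0356 against WT, 0.71 and 0.140 against NSG). Lyn, also a Src family kinase, passed without the fold limit at 0.27 (limma adjusted p = 0.0123) against WT. Rac2, the most abundant of the list with a mean of 1113 TPM, differed by 0.16 (adjusted p = 0.217).

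Of 26 tested genes for integrin activation and adaptors, 1 was called against each host. Actn1, an actin cross-linker at adhesion sites, was at 8.52 ± 1.64 TPM in WT, 14.3 ± 2.68 in Rag2-/- and 11.3 ± 1.32 in NSG hosts (0.68 and limma adjusted p = 0.0363 against WT). Fyb, which encodes the adaptor ADAP, was at 27.1 ± 1.81, 38.8 ± 4.18 and 26.6 ± 2.32 TPM in the same order. It was called against NSG (0.53, limma adjusted p = 0.0457) and was just below the fold limit against WT (0.50, limma adjusted p = 0.0170). The activators talin and kindlin-3 were not called, with Tln1 at 0.04 and Fermt3 at 0.01 against WT. Rap1b, a small GTPase that opens integrins, was at 0.28 (limma adjusted p = 0.0421), below the fold limit.

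Counter-receptors and other adhesion receptors included 1 called gene among 14 tested. Cd177, a surface glycoprotein of neutrophils that associates with Mac-1, was at 116 ± 23.6 TPM in WT, 252 ± 93.6 in Rag2-/- and 112 ± 14.8 in NSG hosts. Its log2 fold change was 1.06 against WT (limma adjusted p = 0.0393) and 1.08 against NSG (limma adjusted p = 0.0835). Icam2, a ligand of LFA-1, was the only list gene that was lower with an adjusted p under 0.05 against WT (-0.47, limma adjusted p = 0.0457), against 0.739% of all genes. The LFA-1 ligand Icam1 and the VLA-4 ligand Vcam1 were at 0.11 and 0.16 and were not called.

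In the list of the CD44 and hyaluronan axis, 1 of 9 tested genes was called against each host. Vcan, a matrix proteoglycan that binds hyaluronan and is also expressed by monocytes, was at 11.2 ± 0.899 TPM in WT, 17.5 ± 3.63 in Rag2-/- and 10.1 ± 1.03 in NSG hosts, 0.58 (limma adjusted p = 0.0350) and 0.73 (limma adjusted p = 0.0462) higher. Moesin (Msn), which links CD44 and PSGL-1 to actin, was 0.31 higher than in WT (limma adjusted p = 0.00919) and 0.26 higher than in NSG (limma adjusted p = 0.0462), below the fold limit. The hyaluronan synthases Has1, Has2 and Has3 were below the filter.

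For the other lists, 0 of 7 tested integrin subunits, 0 of 6 selectins and other selectin ligands and 0 of 9 genes of selectin ligand glycosylation were called by limma in any comparison. Itgb5 and Itga5, the highest of the other integrin subunits, were at -0.003 and -0.12 on the log2 scale against WT. Fut7, which builds the sugar that selectins bind, was at -0.07.

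**Figure D5:**
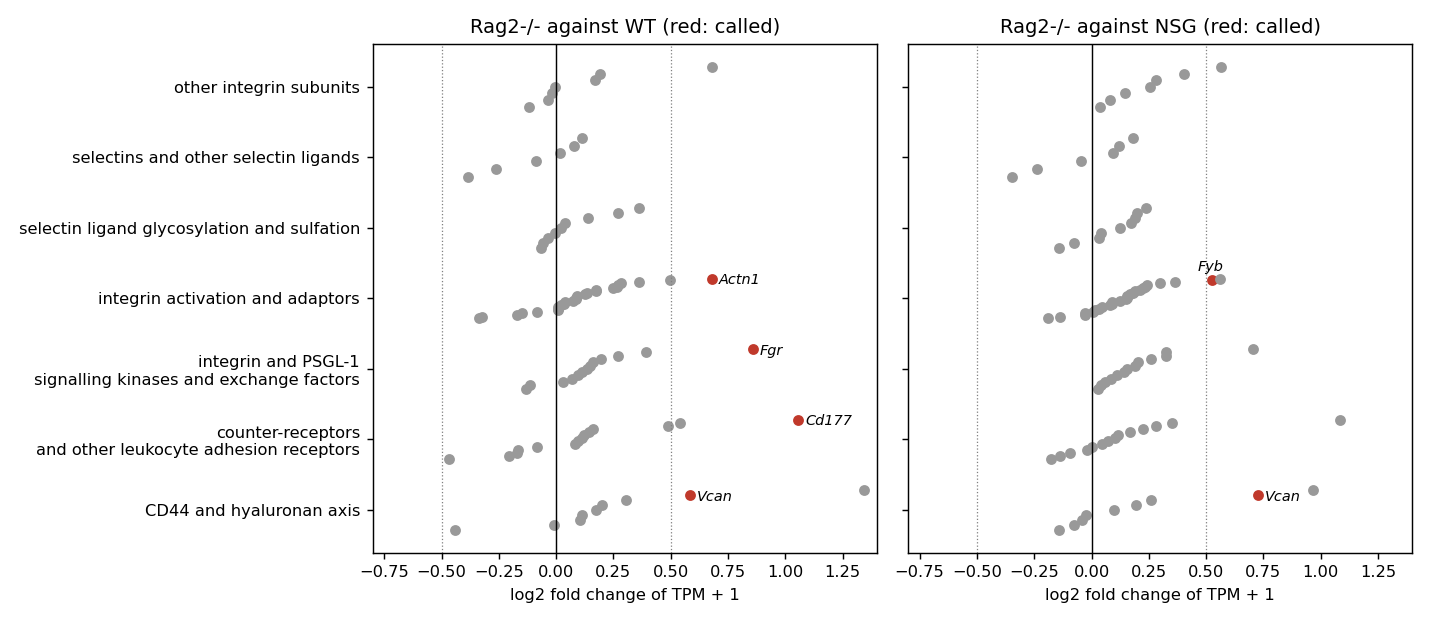
Log2 fold change of TPM + 1 of the 84 tested genes of 7 adhesion lists in Rag2-/- against WT (left) and against NSG hosts (right), with called genes in red and dotted lines at the fold limit. Fgr, Cd177, Vcan and Actn1 are called against WT and Fyb and Vcan against NSG, while genes such as Cd74 at 1.34 against WT lie beyond the fold limit without a call.

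The called genes of these lists depended on single libraries, and Cd177 and Fgr were highest in Rag2-/- replicates 2 and 3, which also held high neutrophil markers. With Chil3, the markers summed to 8764, 9633, 10901 and 2505 TPM in Rag2-/- replicates 1 to 4. In the same order, Cd177 was at 199, 328, 334 and 147 TPM and Fgr at 39.9, 58.6, 56.6 and 35.9 TPM. Without Chil3, left out after its values were seen, the marker sums were 2363, 2121, 2168 and 869 TPM, with replicate 1 the highest. The part of the markers in these calls was not tested. With single libraries left out, the count against WT ranged from 0, without WT replicate 2 or Rag2-/- replicate 2 or 3, to 6, without Rag2-/- replicate 4 or NSG replicate 3. Against NSG it ranged from 0, without any of 9 libraries, to 4 without Rag2-/- replicate 4.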

How the data were processed

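RNA-seq of MLL-AF9 cells from 3 hosts (4 libraries each) was analysed from the deposited TPM values. According to the methods, the authors aligned paired reads to mm10 with HISAT2 on Galaxy, took gene counts and calculated TPM from them. The counting tool, its use of strand and the annotation are not given in the sources used here. Gene IDs were paired with symbols and exon lengths in GENCODE M21 (55141 of 55401). To estimate reads, TPM was multiplied by exon length and divided by a unit fitted to each library. Between 98.8% and 99.1% of the values under 20 estimated reads were within 0.05 of whole reads. These estimates give the depth, cover no interval, and were used in voom.

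The 15026 genes whose mean reached 1 TPM were fitted on log2(TPM + 1) with limma 3.58.1 under R 4.3.3 (a linear model, contrasts and trended empirical Bayes), with all 12 libraries in a single fit and no covariate. Thresholds follow the study's methods. P-values measure the spread between mice as labelled. The fit was tested on simulated data with changes larger than those of most members, so that test does not cover small differences. Members and lists were chosen with earlier results of these data known. The named genes are all members, list genes called in any comparison, the 5 most abundant of each list and the 5 genes most alike to Itgb2l and to Itgam; others are named after their values were seen. Some genes of the lists are counted but not reported by name here. Same-numbered libraries of different hosts did not deviate together (correlations from -0.091 to 0.032), so the numbers were not taken as pairs. Python 3.11.15 with pandas 2.3.3 and scipy 1.17.1 was used besides. Alternatives were other pseudocounts, filters, scalings and variance models, the 8 libraries of a comparison alone, a replicate block, no fold limit and each library left out. Voom and the library split were chosen after seeing the data.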

Additional observations from a re-analysis of the deposited data

Results flagged for a closer look

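Among 42 groups of 4 libraries (14 genes in 3 hosts), 2 held a library whose gap to its nearest neighbour took an unusually large share of the group's range, where chance gives about 2.1. Itgb2 in WT replicate 2 was at 409 TPM with the next library at 459, a share of 0.929. Vcan in NSG replicate 3 was at 11.6 TPM with the next at 9.63, a share of 0.923.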

How the results depend on the processing

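The count of members called against WT, 1, fell to 0 under filters of at least 1 TPM in at least 4 libraries or in every library, where Itgb2l is no longer tested, and was 3 with no limit on the fold change. Left-out libraries gave 0 to 1. Against NSG the count of 0 became 1 with eBayes without a trend, and left-out libraries gave 0 to 1. The count of list genes against WT, 4, was 0 with no filter, 2 with eBayes without a trend, 1 with a replicate block, 11 with no fold limit and 1 with the library split as a factor. Left-out libraries gave 0 to 6. Against NSG the count of 2 was 0 with a pseudocount of 0.1, no filter, quantile normalization, median-ratio scaling, eBayes without a trend, the 8 libraries alone, the replicate block or the library split, and 4 with no fold limit. Left-out libraries gave 0 to 4. The replicate number paired no samples, and with it as a block Itgb2l kept its call against WT (adjusted p = 0.0443). The library split, taken from an earlier reading of these data, sets Rag2-/- replicates 3 and 4 and NSG replicates 1 and 2 against the rest. No label names it as a batch and it holds no WT library. Deviations from the group means correlated between its Rag2-/- and NSG libraries at -0.00283 to 0.0657. Between the Rag2-/- and NSG libraries outside it they correlated at 0.000626 to 0.128, and across the split at -0.0971 to 0.0318. What the split stands for was not tested. With it, Itgam against WT went from 0.36 to 0.26. Counts over all genes higher than in WT, 172, were 91 with no filter and 40 without WT replicate 2.

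Signs turned for differences near 0. Itgam in NSG against WT was -0.000814 with median-ratio scaling, -0.088 with the split and -0.047 to 0.11 with libraries left out. In the same comparison, Itgb2l was 0.13 with the split and -0.12 to 0.074 with libraries left out, and Cd177 was 0.095 and -0.17 to 0.080. Itga4 ranged from -0.24 to 0.020 and Fyb from -0.079 to 0.018. In Rag2-/- against NSG, Itgax ranged from -0.27 to 0.00037 and Itga4 from -0.085 to 0.17. For single genes, 889 of the values kept direction and side of the threshold, 82 lost a call, 14 gained one and 17 turned. Only genes called in the main fit could lose a call, and most comparisons counted here had none. The 889 therefore do not measure how steady the calls are. Apart from the filters, the cause of these changes was not tested. Depth limits Itgb2l most, with 2 to 4 estimated reads in several libraries.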
